A study of Mus musculus with 8 samples.

Results

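Lysosomes were followed here through 57 genes in mouse 2-cell embryos: 36 for enzymes and cofactors of the lysosomal lumen, 6 for membrane proteins, 13 for the vacuolar proton pump, and the transcription factors Tfeb and Tfe3. The genes were taken from a written list of symbols matched to the gene identifiers of the deposited table, which holds 37310 genes, and all 57 were found in it. That list was drawn up knowing that Ctsb, Ctsc and Cd63 were far lower after exposure, so the values of these 3 genes are given as a description only. Of the 57, 48 reached 1 FPKM (a level per kilobase of transcript and per library size) in at least 4 of the 8 libraries and were tested; Ctsf, Ctso, Ctss, Lipa, Naglu, Idua, Arsa, Sgsh and Tfeb did not. The embryos were fertilized mouse eggs cultured in G1 medium to the 2-cell stage. In the control group (4 libraries) the medium carried the solvent DMSO, and in the exposed group (4 libraries) it carried 6 µM triclocarban (TCC), an antibacterial agent of soaps. Strain, age, hour of collection and number of embryos per library are not given in the labels. Nor is it stated that the 4 libraries of a group are separate cultures, and the p-values therefore reflect only how far these libraries differ, possibly for technical reasons.

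The lysosome is an acidic organelle in which proteins, glycans, glycolipids and other macromolecules are broken down. Its enzymes are made in the endoplasmic reticulum and mostly carried there by mannose 6-phosphate receptors. The vacuolar ATPase, a rotary pump with a membrane part (V0) and a cytosolic part (V1), pumps protons into the lumen, where the low pH activates the enzymes. TFEB and TFE3 bind the CLEAR element, a short E-box motif in promoters of many lysosomal genes. In the mouse embryo, autophagy becomes active soon after fertilization and brings material inherited from the egg to lysosomes.

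The CLEAR motif is shown first because the FPKM values were not used to find it. It is known from promoters of many lysosomal genes, so its share in a list of such genes is not a result of these libraries. RefSeq (GRCm38.p6) gives promoter windows, from 250 bases before to 50 bases after a RefSeq start of the gene, for 49 of the 57 genes. The E-box core CACGTG was present in the windows of 16 of these 49 genes (32.7%), against 8.09% of the 27025 genes in the table of promoters. The longer core TCACGTGA, which contains the first motif, was present for 6 of 49 (12.2%) against 1.12% of all. Both motifs read the same on the 2 strands. The 8 sites of the longer core are printed with 11 bases on either side, the core in capitals, 5′ to 3′ on the gene's strand. Positions count from the RefSeq start of the window as 0. For Ctsa, Gla, Ctsd and Atp6v1a this start lies inside the GENCODE M21 gene, more than 100 bases from its start:
Ctsa, chr2:164833749-164833778, plus strand, position -13: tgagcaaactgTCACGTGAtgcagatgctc
Ctsa, chr2:164833766-164833795, plus strand, position 4: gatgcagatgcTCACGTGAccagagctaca
Gla, chrX:134601215-134601244, minus strand, position -228: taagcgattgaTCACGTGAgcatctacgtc
Gla, chrX:134601182-134601211, minus strand, position -195: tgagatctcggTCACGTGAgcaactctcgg
Ctsd, chr7:142387908-142387937, minus strand, position -99: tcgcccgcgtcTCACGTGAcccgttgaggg
Mcoln1, chr8:3500462-3500491, plus strand, position -46: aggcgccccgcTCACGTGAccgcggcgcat
Atp6v0d1, chr8:105566050-105566079, minus strand, position -4: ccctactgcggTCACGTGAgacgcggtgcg
Atp6v1a, chr16:44139373-44139402, minus strand, position -132: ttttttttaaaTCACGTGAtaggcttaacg
Genes are called lower or higher with triclocarban where limma on log2(FPKM + 1) gave a Benjamini-Hochberg adjusted p under 0.05, which 30.8% of all 12941 tested genes did as lower and 11.3% as higher; every change given is treated minus control on this log2 scale unless called a fold. Of these 6 genes, Ctsa and Gla were lower and the other 4 did not pass. Of the 16 genes with CACGTG, 5 were lower (Ctsa, Ctsl, Gla, Glb1 and Gaa), 7 did not pass and 4 were not tested. Ctsc and Ctsz were picked for printing as the most strongly reduced protease genes with a window at their annotated start. The 250 bases before their starts held neither motif:
Ctsc, chr7:88277835-88278084, plus strand: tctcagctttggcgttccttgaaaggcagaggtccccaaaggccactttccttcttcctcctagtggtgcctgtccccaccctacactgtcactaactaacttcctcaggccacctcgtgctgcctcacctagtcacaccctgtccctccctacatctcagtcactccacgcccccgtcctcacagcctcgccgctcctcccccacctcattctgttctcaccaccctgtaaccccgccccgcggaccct
Ctsz, chr2:174439040-174439289, minus strand: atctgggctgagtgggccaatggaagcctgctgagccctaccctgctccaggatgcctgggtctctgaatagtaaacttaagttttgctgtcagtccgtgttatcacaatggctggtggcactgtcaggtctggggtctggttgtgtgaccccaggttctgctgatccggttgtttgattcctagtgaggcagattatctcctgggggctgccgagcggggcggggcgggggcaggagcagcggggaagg
A match or its absence describes these letters in these windows, and its relation to the changes was not tested. Of the 57 windows of the 49 genes, 41 begin within 100 bases of the gene start in GENCODE M21 and the others at another RefSeq start.

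The libraries gave 477882 to 605986 FPKM in all, and their depth could only be estimated, as 6930000 (triclocarban library 2) to 14800000 fragments. All 13 embryo and oocyte markers passed the filter, with summed values of 3606 to 4458 FPKM in controls and 5691 to 8216 with triclocarban. Of these, 5 were higher and 4 lower (Zp3, Zfp352, Tdpoz4 and Obox3), and Dppa3 held much of the sum, with means of 2518 and 4668 FPKM. The 15 cumulus and granulosa cell markers summed to 23.4 to 32.5 FPKM in controls and 10 to 19.8 FPKM with triclocarban, and 4 of them passed the filter. Amhr2 was at 15.4 to 26.7 FPKM in controls and 0.19 to 2.37 with triclocarban (-3.40, limma adjusted p = 5.54e-05), and Tnfaip6 was also lower (-1.63), whereas Fshr and Cyp19a1 were higher (1.16 and 1.55). Of the 15, Amh, Inha and Lhcgr were at 0 in all 8 libraries. Of 13 blood cell markers only C1qb passed (sums of 4.86 to 13.3 and 2.67 to 26.4), and Adgre1 and Tyrobp were at 0 in every library. Of 8 sperm markers only Prm2 passed, and the sums were 1.12 to 7.34 in controls and 7.91 to 12.5 with triclocarban. The part of other cells in the results was not tested. The values describe whole embryos, in which fewer cells with a transcript and less of it per cell cannot be told apart.

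With triclocarban, several cathepsin, glycosidase and membrane protein genes were much lower. Of the 11 listed V0 and V1 subunit genes of the proton pump, 10 had positive changes, 2 of them past the threshold. Among all tested genes, 42.0% had a positive change. Without controls 3 and 4, 6 of the 11 were positive, where 34.0% of all tested genes were. Among further V0 and V1 subunit genes tested, Atp6v0a4 and Atp6v0d2 had positive changes. Those of Atp6v0a1, Atp6v0a2, Tcirg1, Atp6v0e, Atp6v0e2 and Atp6v1c2 were negative. Of the 48 lysosome genes tested, 20 were lower, 3 higher and 25 did not pass. Among all 12941 genes tested, 30.8% were lower and 11.3% higher by the same rule. Lower calls were made for 14 of 28 luminal enzymes and cofactors, 4 of 6 membrane proteins and 1 of 11 V0 and V1 subunits, and no test compared them with other genes. A further count, added after the data were seen, left out Ctsb, Ctsc and Cd63. It also left out Gusb and Galns, which reached 1 FPKM in no treated library. Lower calls were then made for 15 of 43 lysosome genes and higher calls for 3, beside the 30.8% and 11.3% of all tested genes. Among these were lower calls for 10 of 24 luminal genes and 3 of 5 membrane proteins. Ctsz, Gaa, Man2b1, Psap and Scarb2 were still counted as lower. They reached 1 FPKM in every control but in only some treated libraries, so this count still holds genes that passed the filter through the controls. With median-of-ratios scaling 17 of the 48 were lower and 9 higher, and with quantile normalization 16 and 7; for the luminal genes the split was 12 and 4 and 11 and 4, and for all genes 3187 and 2638 and 2947 and 2803. The triclocarban libraries lay entirely below the controls for 22 of the 48 genes and entirely above them for 3, where the shares over all tested genes were 30.0% and 10.2%. The filter favours genes that are high in either group: besides Gusb and Galns, 7 tested genes reached 1 FPKM in only some treated libraries, and 38 did in all 8 libraries. The median change was -0.01 on the log2(FPKM + 1) scale, where that of all tested genes was -0.19, and its sign depended on the settings.

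**Figure D1:**
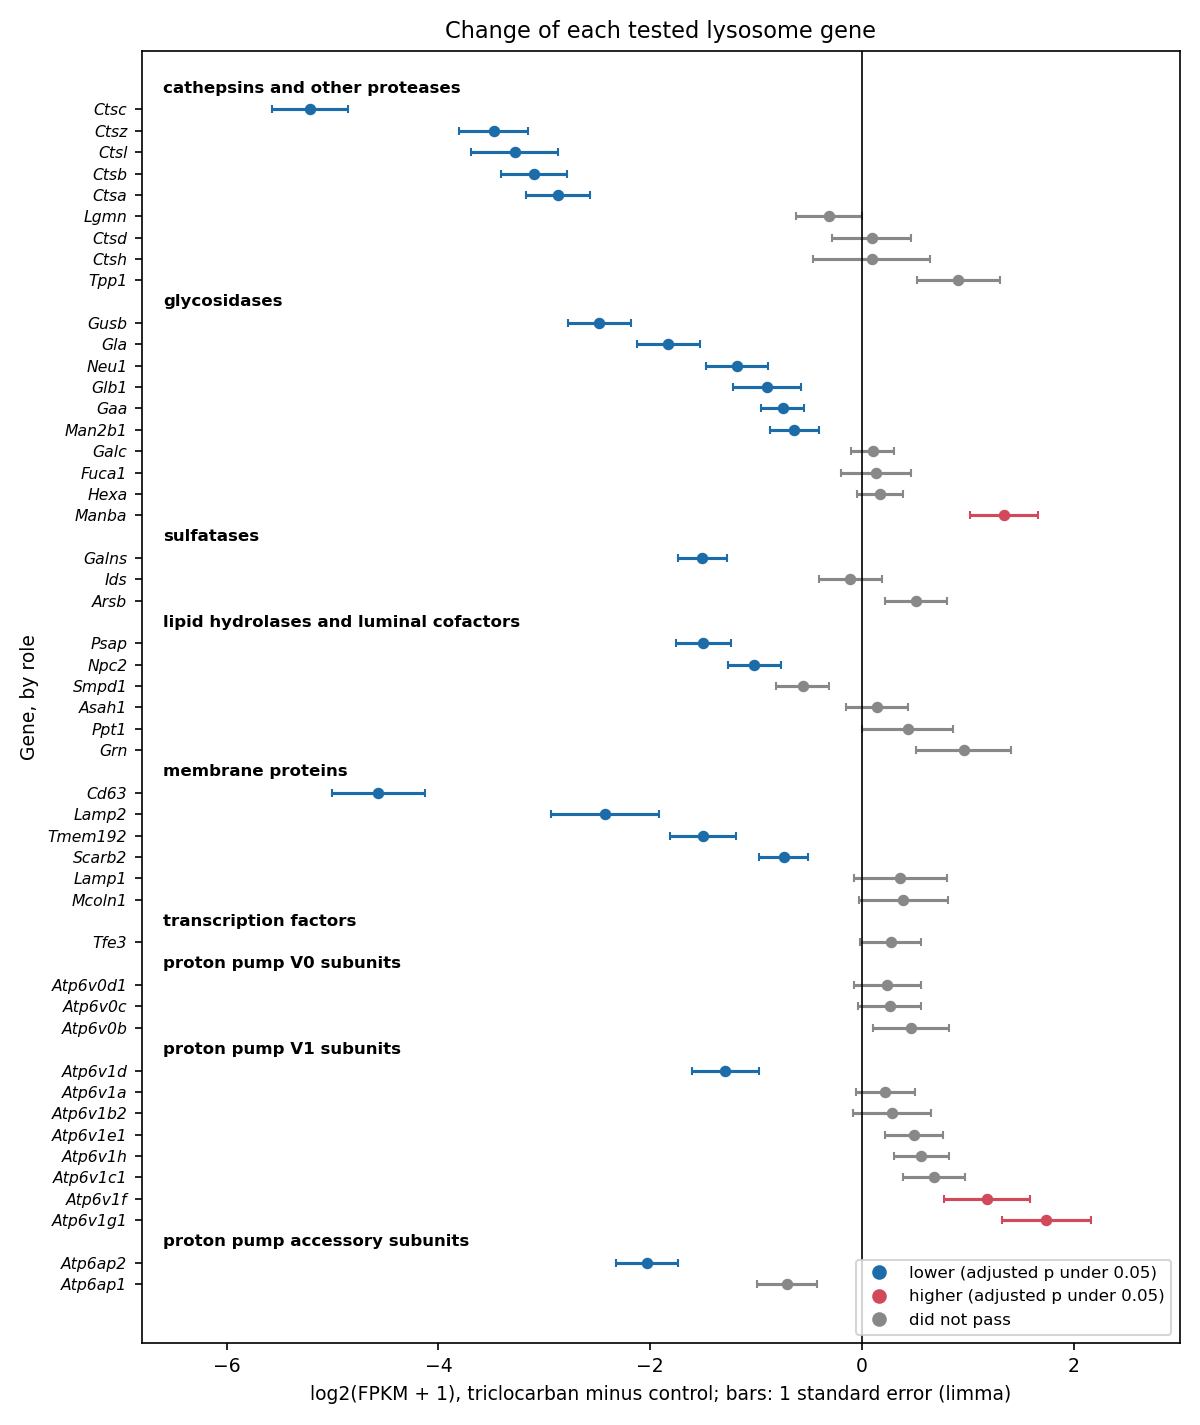
Change of each of the 48 tested lysosome genes, grouped by role (vertical axis), as triclocarban minus control in log2(FPKM + 1) (horizontal axis); points are limma estimates over 4 libraries a group, bars are 1 standard error, and colour gives the call. Ctsc lies at -5.21 and Cd63 at -4.57, while the V0 subunits lie between 0.24 and 0.46.

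Among proteases, 5 of 9 tested genes were lower and the others did not pass. These 5 include Ctsb and Ctsc, which were known to have fallen when the list was drawn up. The shares over all tested genes, for this and the following roles, were 30.8% lower and 11.3% higher. Ctsc (ENSMUSG00000030560.9, chromosome 7, 88278085 to 88310888, plus strand, GRCm38) encodes cathepsin C, a dipeptidyl peptidase that activates other proteases. It was at 74.2, 54.3, 128.5 and 148.1 FPKM in controls 1 to 4 and at 1.77, 1.15, 2.69 and 0.93 with triclocarban. Its mean was 61.9-fold lower and its log2 change was the lowest of all tested genes. Ctsb (chromosome 14, 63122462 to 63145923, plus strand), for the cysteine protease cathepsin B, stood at 44.3, 41.2, 78.1 and 51.9 FPKM in the controls. With triclocarban it was at 6.96, 3.13, 6.87 and 4.66, and its mean was 9.96-fold lower, with no overlap between the groups.

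Ctsl, for the endopeptidase cathepsin L, had the highest FPKM of the luminal enzymes in every control (chromosome 13, 64359337 to 64370890, minus strand). Its level was 132.9, 159.6, 503.0 and 345.7 FPKM in controls 1 to 4, and it was 20.2, 20.9, 35.4 and 24.2 with triclocarban. The log2 change was -3.28 ± 0.41 (SE, limma adjusted p = 0.000151); controls 3 and 4 were the highest, and the lowest control was still above every treated library. Ctsz, for a cysteine carboxypeptidase (chromosome 2, 174427493 to 174439039, minus strand), gave 23.7, 23.4, 36.9 and 24.4 FPKM in controls and 1.46, 0.49, 1.46 and 3.14 with triclocarban. The groups did not overlap, and the log2 change was -3.48 ± 0.33 (SE, limma adjusted p = 5.21e-05). Ctsa, for the serine carboxypeptidase that also stabilizes β-galactosidase and the sialidase NEU1, had 16.4, 17.3, 33.4 and 20.7 FPKM in controls. In treated libraries it had 2.33, 1.60, 2.99 and 1.42, a log2 change of -2.87 ± 0.30 (SE, limma adjusted p = 6.42e-05) and again no overlap.

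The other 4 tested proteases did not pass. Ctsd, for the aspartic protease cathepsin D, had a mean of 8.43 ± 4.35 FPKM in the control group and 8.18 ± 1.25 in the treated group (mean ± SD of 4), and its change was 0.09 (limma adjusted p = 0.861). Legumain, an asparaginyl endopeptidase encoded by Lgmn, averaged 35.8 ± 10.9 and 28.3 ± 7.47 FPKM (log2 change -0.31). Ctsh, for an aminopeptidase, was at 0.09 ± 0.55 (SE), and its treated libraries ran from 3.51 FPKM in library 2 to 32.2 in library 1. Tpp1, for a tripeptidyl peptidase, had a log2 change of 0.91 (limma adjusted p = 0.0835), and it passed the threshold without triclocarban library 2 (1.25, limma adjusted p = 0.0156) and without control 1 (1.12, limma adjusted p = 0.0427). The exons of Ctsa, Ctsb, Ctsl and Ctsz overlap genes on the other strand, those of Ctsz by 10 bases (Nelfcd). Ctsl overlaps Gm47123 by 977 bases, and Gm49230 on its own strand by 395; neither was analysed here. For Ctsb this is Fdft1 (101 FPKM in controls and 56.9 with triclocarban), and for Ctsa they are Neurl2 (8.51 and 0.478) and Pltp (1.52 and 0.0388). Whether reads were assigned by strand is not stated, so reads of such partners cannot be told apart.

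Glycosidases, which remove sugars from glycoproteins, glycolipids and glycogen, were lower in 6 of 10 tested genes and higher in 1. Gusb encodes β-glucuronidase, an enzyme of glycosaminoglycan breakdown (chromosome 5, 129989011 to 130003049, minus strand). It was at 6.10, 8.73, 4.38 and 12.2 FPKM in controls 1 to 4 and at 0.81, 0.42, 0.46 and 0.34 with triclocarban, so every treated library was below 1 FPKM and every control above 4. The log2 change was -2.48 ± 0.30 (SE, limma adjusted p = 0.000118), and at this low level it depended on the pseudocount (-3.66 with 0.1 and -1.19 with 5). Gla, for α-galactosidase A, which acts on globotriaosylceramide, had 17.1, 21.1, 35.1 and 30.0 FPKM in controls and 7.63, 3.98, 6.96 and 7.17 with triclocarban. Its groups did not overlap and its log2 change was -1.83 ± 0.30 (SE, limma adjusted p = 0.000666). Neu1, for the lysosomal sialidase, went from 8.20, 6.44, 3.79 and 3.17 FPKM in the controls to 1.83, 1.39, 1.97 and 1.56 in the treated libraries (log2 change -1.18, limma adjusted p = 0.00658). Here controls 1 and 2 were the higher ones, and without them the change was -0.74.

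The remaining falls among glycosidases were smaller. Glb1, for β-galactosidase, read 12.4, 8.37, 15.9 and 14.2 FPKM in controls and 8.01, 3.28, 8.03 and 6.61 with triclocarban, with the highest treated library just below the lowest control. Its exons overlap Tmppe on the same strand, which had 4.95 FPKM in controls and 0.54 with triclocarban. Its log2 change was -0.90 (limma adjusted p = 0.0382), and the call was lost without control 1, 3 or 4 or without triclocarban library 2 or 4 (limma adjusted p of 0.0571, 0.102, 0.0902, 0.0644 and 0.0731). Gaa, for the glycogen-degrading α-glucosidase, had means of 2.02 ± 0.427 and 0.787 ± 0.187 FPKM (± SD of 4), and it changed by -0.75 on the log2 scale (limma adjusted p = 0.0113, and 0.05 without controls 3 and 4 and 0.12 after quantile normalization). Man2b1, for α-mannosidase, averaged 1.94 ± 0.611 and 0.876 ± 0.285 FPKM, a change of -0.64 (limma adjusted p = 0.0404). That call was lost without control 1 or 2 or without triclocarban library 2, 3 or 4 (limma adjusted p of 0.0898, 0.0897, 0.0706, 0.0733 and 0.105), and the change was -0.39 when controls 1 and 2 were both left out.

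Manba, for β-mannosidase (chromosome 3, 135485611 to 135571404, plus strand), was the 1 higher enzyme gene. It was at 4.85, 3.31, 1.3 and 3.44 FPKM in controls and at 13.1, 7.28, 9.09 and 8.10 with triclocarban, with no overlap between groups. The log2 change was 1.34 ± 0.32 (SE, limma adjusted p = 0.00612). Fuca1 for α-fucosidase, Galc for galactosylceramidase and Hexa for a lysosomal hexosaminidase subunit lay at 0.13, 0.10 and 0.17 and did not pass.

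Sulfatases cut sulfate groups from glycosaminoglycans and sulfolipids. Galns, for N-acetylgalactosamine-6-sulfatase, had 3.72, 2.89, 4.11 and 5.04 FPKM in controls and 0.87, 0.94, 0.52 and 0.54 with triclocarban. It was the 1 lower gene of the 3 tested sulfatases, without overlap of the groups (log2 change -1.51 ± 0.23 SE, limma adjusted p = 0.000369). Ids, for iduronate-2-sulfatase, was at 2.28, 3.23, 2.28 and 2.41 FPKM in controls and 1.93, 4.93, 1.76 and 1.42 with triclocarban. Apart from triclocarban library 2, the treated values lay below the controls, and the change of -0.11 did not pass (limma adjusted p = 0.804). Arsb, for arylsulfatase B, read 3.54, 1.81, 1.72 and 1.27 FPKM in controls and 2.27, 2.53, 4.40 and 4.25 in treated libraries, which overlapped (log2 change 0.51, limma adjusted p = 0.178).

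Of the lipid-degrading enzymes and luminal cofactors, 2 of 6 tested genes were lower. Psap encodes prosaposin, the precursor of the saposins that present glycolipids to their hydrolases (chromosome 10, 60277627 to 60302597, plus strand). It was at 5.08, 3.20, 5.09 and 5.40 FPKM in controls 1 to 4 and 1.67, 0.45, 0.97 and 1.04 with triclocarban (log2 change -1.50 ± 0.26 SE, limma adjusted p = 0.000896). Npc2, for the cholesterol carrier of the lumen, was at 30.7, 30.6, 49.4 and 32.1 FPKM in controls and 18.8, 13.6, 17.2 and 18.1 with triclocarban (a log2 difference of -1.02 ± 0.25 SE, limma adjusted p = 0.00759). Neither gene's groups overlapped. Smpd1, for acid sphingomyelinase, had 10.6, 10.7, 15.1 and 11.2 FPKM in controls and 9.54, 7.92, 6.62 and 6.83 with triclocarban. Its groups were also separate, but the log2 change of -0.56 missed the threshold (limma adjusted p = 0.086).

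Grn, for progranulin, a secreted and lysosomal glycoprotein, was at 6.26, 7.31, 1.34 and 1.37 FPKM in controls and 10.6, 4.85, 7.34 and 7.51 with triclocarban. Controls 1 and 2 lay within the treated range and controls 3 and 4 below it (log2 change 0.96, limma adjusted p = 0.105, which passed without control 1 at 0.0466 and without control 2 at 0.0343). Asah1 for acid ceramidase and Ppt1 for palmitoyl-protein thioesterase were at 0.14 and 0.43 and did not pass. Without triclocarban library 2, which was at 1.79 FPKM where the other treated libraries were at 7.28 to 10.8, Ppt1 did (0.89, limma adjusted p = 0.0325).

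Among membrane proteins, 4 of 6 were lower and the others did not pass. Without Cd63, known to have fallen when the list was drawn up, 3 of 5 were lower. Cd63 (chromosome 10, 128900989 to 128912822, plus strand) encodes a tetraspanin of late endosomes and lysosomes. It stood at 118.6, 150.6, 345.9 and 301.9 FPKM in controls 1 to 4 and at 7.25, 3.26, 13.3 and 10.9 with triclocarban, and its mean was 26.4-fold lower. Its processed copy Cd63-ps had 33.1 to 79.0 FPKM in controls and 0.62 to 4.44 with triclocarban, and how reads shared by the copies were assigned is not stated. Lamp2 (chromosome X, 38401357 to 38456454, minus strand), for a heavily glycosylated protein that lines the lysosomal membrane and serves chaperone-mediated autophagy, was at 32.3, 33.1, 184.6 and 107.9 FPKM in controls. With triclocarban it was at 14.0, 15.6, 10.5 and 8.45, below every control (log2 change -2.43 ± 0.51 SE, limma adjusted p = 0.00293). Controls 3 and 4 were several times above controls 1 and 2, and without controls 3 and 4 the change was -1.39 (limma adjusted p = 0.00771).

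Lamp1, the related lining protein, did not pass: it was at 35.5, 31.8, 10.8 and 11.6 FPKM in controls and 44.6, 16.4, 23.4 and 23.9 with triclocarban, with the groups overlapping (a log2 difference of 0.36, limma adjusted p = 0.541). In Lamp1 controls 3 and 4 were the low ones, and without controls 1 and 2 it was higher (1.11, limma adjusted p = 0.0335). Mcoln1, for the cation channel TRPML1, did not pass either (0.39, limma adjusted p = 0.484, and 1.14 with adjusted p = 0.0155 without controls 1 and 2). Tmem192, for a transmembrane protein used as a lysosomal tag, was at 22.5, 19.9, 27.8 and 19.5 FPKM in controls and 10.3, 3.71, 8.88 and 7.64 with triclocarban (log2 change -1.50 ± 0.31 SE, limma adjusted p = 0.00242). The groups did not overlap. Scarb2, for LIMP-2, a lysosomal membrane protein that serves as a sorting receptor, had 1.36, 2.20, 2.04 and 2.07 FPKM in controls and 0.82, 0.81, 1.22 and 0.24 in treated libraries, which did not overlap (log2 change -0.74, limma adjusted p = 0.0239). Its call was lost without control 2, 3 or 4 or triclocarban library 4 (limma adjusted p of 0.0545, 0.0527, 0.0566 and 0.0891).

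**Figure D2:**
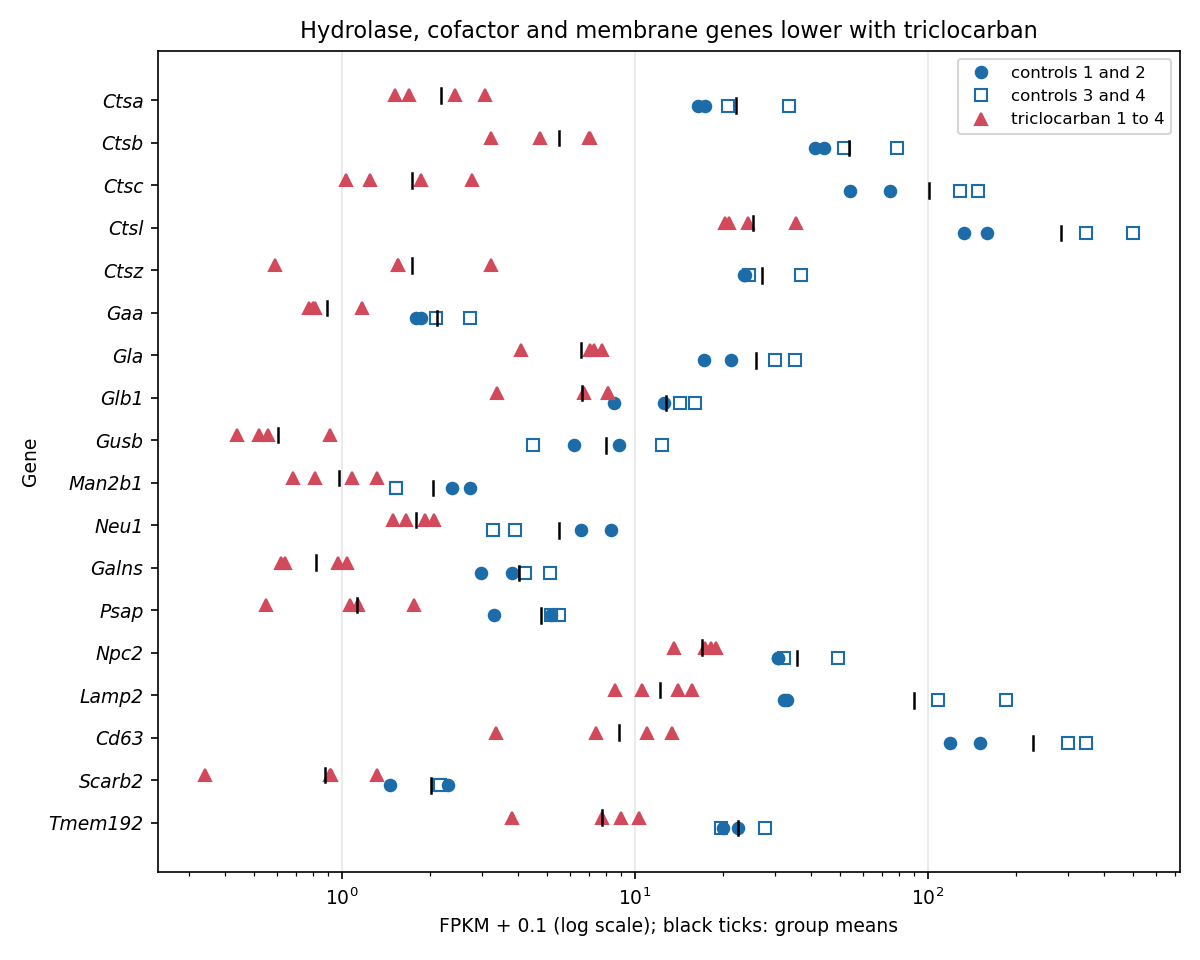
FPKM + 0.1 on a log axis for the 18 enzyme, cofactor and membrane protein genes that were lower with triclocarban; each symbol is 1 library, with controls 1 and 2 as filled circles, controls 3 and 4 as open squares, triclocarban libraries as triangles, and black ticks at the group means. In every row the triangles lie left of all controls; for Ctsl, Lamp2 and Cd63 the open squares lie farthest right, and for Neu1 and Man2b1 the filled circles do.

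Of the transcription factor genes, Tfe3 was well detected and Tfeb barely. Tfe3 was at 23.2, 14.8, 14.8 and 8.69 FPKM in controls and 18.5, 18.1, 16.4 and 18.0 with triclocarban, where the treated values lay inside the control range (log2 change 0.27, limma adjusted p = 0.491). Tfeb was at 0.25, 0.12, 0.33 and 0.59 FPKM in controls and listed at 0 in all 4 treated libraries, too low for the filter. In the fit without a filter it passed with a log2 change of -0.39 (limma adjusted p = 0.0237), from values all below 1 FPKM. Sgsh, for the sulfamidase of heparan sulfate breakdown, was at 1.00, 0.95, 2.75 and 1.52 FPKM in controls and 0.13, 0, 0 and 0.03 with triclocarban, and at -1.25 in that fit (limma adjusted p = 0.00521). The protease gene Ctss was at 0.67, 0.83, 8.78 and 5.65 FPKM in controls and 0.77, 0.37, 0.44 and 0.43 with triclocarban, so its higher values came from controls 3 and 4 (-1.33, limma adjusted p = 0.154). Ctsf, Lipa, Naglu, Idua and Arsa lay between 0 and 2.15 FPKM in every library, and Ctso was listed at 0 throughout.

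Of 11 V0 and V1 subunit genes, 2 were higher, 1 was lower and 8 did not pass. The 10 positive changes became 6 when controls 3 and 4 were left out, with Atp6v0b, Atp6v0d1, Atp6v1a and Atp6v1b2 turning negative. The share of positive changes over all tested genes went from 42.0% to 34.0%. The membrane ring subunit Atp6v0c was at 93.2, 79.3, 54.2 and 90.7 FPKM in controls and 136.2, 79.2, 64.3 and 107.6 with triclocarban. Atp6v0b, for another ring subunit, had 51.4, 59.9, 18.5 and 26.9 FPKM in controls and 60.6, 38.0, 51.2 and 47.9 in treated libraries. Atp6v0d1, for the subunit that joins the ring to the central stalk, had 33.8, 43.0, 22.9 and 26.4 FPKM in controls and 27.5, 64.5, 30.1 and 32.9 in treated libraries. The groups overlapped for all 3 genes, and their log2 changes were 0.26, 0.46 and 0.24 (limma adjusted p of 0.524, 0.341 and 0.577). The copy Atp6v0c-ps2 had 57.4 to 127.8 FPKM in controls and 23.3 to 100.8 with triclocarban, so the level of Atp6v0c is uncertain.

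In the V1 part, Atp6v1g1 (chromosome 4, 63544772 to 63550750, plus strand), for a subunit of the peripheral stalk, was at 126.1, 142.8, 39.2 and 42.0 FPKM in controls 1 to 4 and 278.8, 237.2, 241.1 and 242.2 with triclocarban. All treated libraries lay above all controls, with controls 3 and 4 the lowest. The log2 change was 1.74 ± 0.42 (SE, limma adjusted p = 0.00595), and 0.89 (limma adjusted p = 0.017) without controls 3 and 4. Atp6v1f, for a subunit of the central rotor, was at 50.7, 59.6, 19.3 and 22.1 FPKM in controls and 87.9, 45.0, 90.2 and 102.8 with triclocarban. Treated library 2 lay within the control range. Its change of 1.18 passed (limma adjusted p = 0.0355), but not without control 3 or 4 (0.106 and 0.101) or without triclocarban library 1, 3 or 4 (0.0838, 0.0864 and 0.0984). The replicate block also lost the call (0.0537). The change was 1.87 when controls 1 and 2 were left out and 0.49 when controls 3 and 4 were.

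Atp6v1d, for the other rotor subunit (chromosome 12, 78840725 to 78861638, minus strand), went the other way: 46.2, 58.0, 58.4 and 61.2 FPKM in controls and 40.1, 24.2, 15.5 and 15.8 with triclocarban, without overlap. Its log2 change was -1.29 ± 0.32 (SE, limma adjusted p = 0.00669, and 0.0511 without controls 3 and 4). Atp6v1c1, for the subunit that links stalk and membrane part, had 85.0, 79.1, 49.5 and 43.5 FPKM in controls and 127.3, 100.6, 95.4 and 80.1 with triclocarban (a log2 difference of 0.68, limma adjusted p = 0.0794, and 0.0418 without control 1). The catalytic subunit Atp6v1a, its partner Atp6v1b2, the stalk subunit Atp6v1e1 and the regulatory subunit Atp6v1h had changes of 0.22, 0.28, 0.49 and 0.56. None of the 4 passed. Among the alternatives, Atp6v1e1 passed without triclocarban library 2 (0.68, limma adjusted p = 0.0214), with median-of-ratios scaling and with library weights. Atp6v1h passed with median-of-ratios scaling, with quantile normalization and without controls 1 and 2 (limma adjusted p of 0.0125, 0.0108 and 0.0247), and Atp6v1b2 without controls 1 and 2 (0.0414). The number of higher V0 and V1 genes was 5 with median-of-ratios scaling and 3 with quantile normalization. It was 6 when controls 1 and 2 were left out and 1 when controls 3 and 4 were. Over all 12941 tested genes, 1466 were higher in the main fit, and 2638 and 2803 with these scalings. Without controls 1 and 2 there were 2838, and without controls 3 and 4 there were 695.

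Accessory subunits help the pump assemble in the secretory pathway and were at lower values. Atp6ap2, which encodes the prorenin receptor (chromosome X, 12587801 to 12617049, plus strand), was at 46.77, 54.48, 96.22 and 55.56 FPKM in controls and 17.43, 15.83, 14.14 and 10.04 with triclocarban (log2 change -2.03 ± 0.29 SE, limma adjusted p = 0.0003). Atp6ap1, for the subunit Ac45, was at 13.4, 10.7, 20.9 and 12.3 FPKM in controls and 9.41, 9.36, 8.47 and 5.81 with triclocarban. Neither gene's groups overlapped, but the change of Atp6ap1, -0.71, missed the threshold (limma adjusted p = 0.0626).

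**Figure D3:**
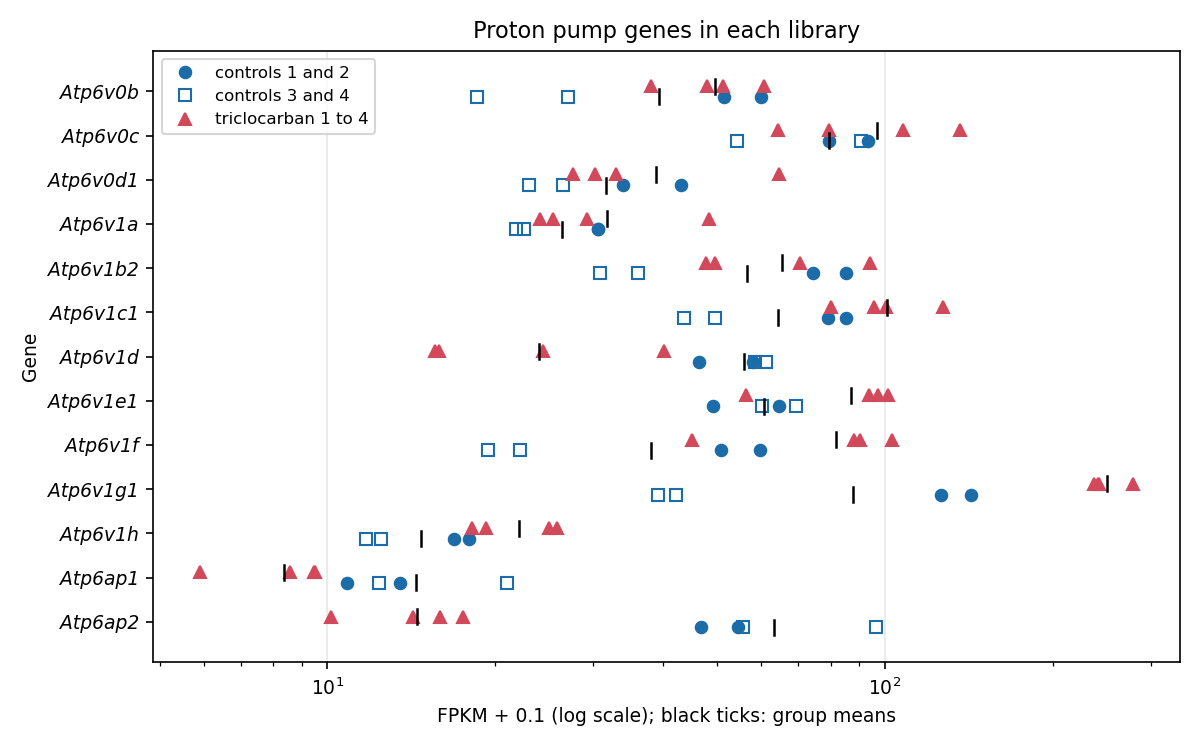
FPKM + 0.1 on a log axis for the 13 proton pump genes; each symbol is 1 library, with controls 1 and 2 as filled circles, controls 3 and 4 as open squares, triclocarban libraries as triangles, and black ticks at the group means. Atp6v1g1 and Atp6v1h have all triangles right of the controls, Atp6v1d, Atp6ap1 and Atp6ap2 have them left, and the other 8 genes overlap.

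Summed by role, the level of the luminal enzymes and cofactors was 511, 494, 1020 and 765 FPKM in controls 1 to 4 and 224, 127, 198 and 181 with triclocarban. For V0 and V1 subunits the sums were 684, 692, 387 and 452 FPKM in controls and 1003, 783, 781 and 821 with triclocarban. Neither pair of groups overlapped for these lists of genes. The size of both sums depended on their members, and for the pump sums the separation did too. Without Ctsb and Ctsc, chosen knowing that they fell, the enzyme sums were 393, 398, 813 and 565 FPKM in controls and 215, 123, 189 and 176 with triclocarban. With 12 further V0 and V1 subunit genes, among them the abundant Atp6v0e, the pump sums were 885, 937, 783 and 853 FPKM in controls and 1133, 877, 983 and 1006 with triclocarban, and the groups overlapped. Both sums were added after the data were seen. The ratio of enzyme to pump sums, which does not depend on a library's total, was 0.75, 0.71, 2.64 and 1.69 in controls 1 to 4 and 0.22, 0.16, 0.25 and 0.22 with triclocarban. With both changes of members it was 0.43 to 1.04 in controls and 0.14 to 0.19 with triclocarban. These sums rest on few genes: Ctsl and Ctsc made up 40.5 to 64.6% of the enzyme sum in controls and 9.8 to 19.2% with triclocarban. Atp6v1g1 held 13.4 to 28.0% of the V1 sum in controls and 35.8 to 39.5% with triclocarban. All 57 genes together took 0.301 ± 0.0383% of the FPKM sum in controls and 0.211 ± 0.0266% in treated libraries (mean ± SD of 4). No test was run on these sums, since the genes were listed with results known.

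**Figure D4:**
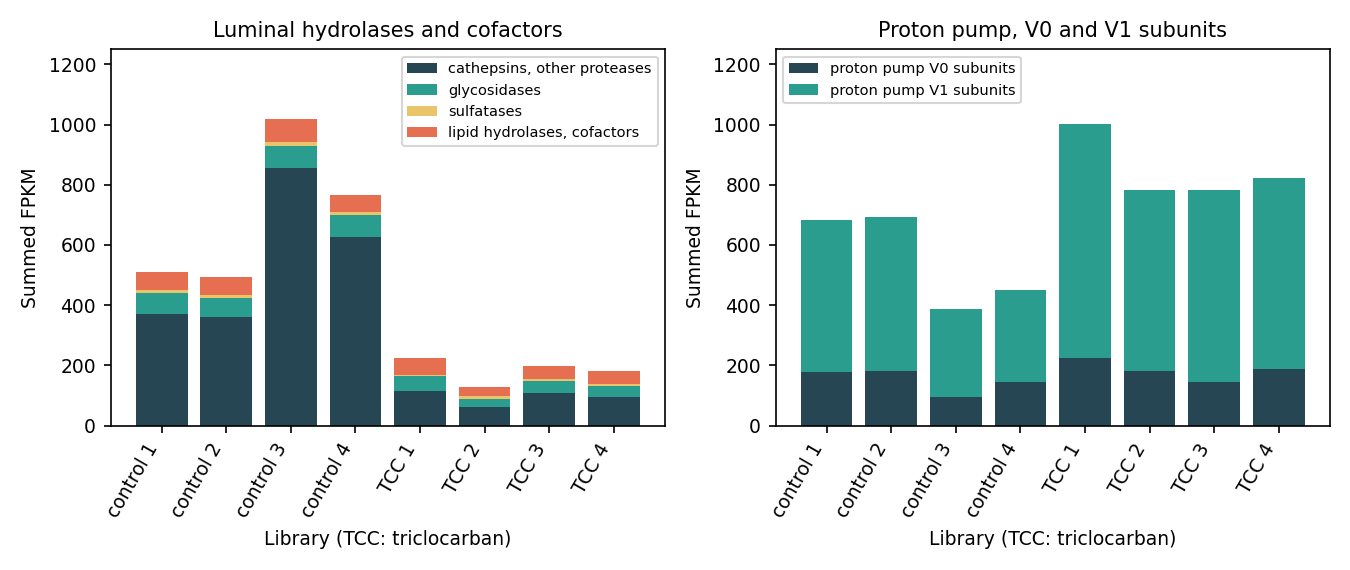
Summed FPKM (vertical axes, from 0) in each of the 8 libraries (horizontal axes) for luminal enzymes and cofactors, stacked by class (left), and for V0 and V1 pump subunits (right). The enzyme bars reach 494 to 1020 FPKM in controls and 127 to 224 with triclocarban, with proteases the largest class in each library; the pump bars reach 387 to 692 and 781 to 1003.

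The controls themselves differed in pairs. Controls 1 and 2 both lay below controls 3 and 4 for 15 of the 20 lower lysosome genes, where this held for 62.8% of all lower genes, and above them for 2 (Man2b1 and Neu1). For 8 of the 11 V0 and V1 genes, controls 1 and 2 both lay above controls 3 and 4, against 43.3% of all tested genes. They also did for 13 of 16 tested genes in a list of other lysosomal enzymes and cofactors. Among all 28 tested luminal genes, controls 1 and 2 lay above controls 3 and 4 for 10. They lay below them for 12, against 30.9% of all tested genes. What distinguishes the pairs is not given in the labels. Mitochondrially encoded genes also differed between them, at 16.6 and 17.6% of the FPKM sum in controls 1 and 2, 22.6 and 24.3% in controls 3 and 4 and 11.1 to 17.6% with triclocarban, and their part in the results was not tested. Leaving out controls 1 and 2 gave 21 lower and 11 higher lysosome genes, and leaving out controls 3 and 4 gave 16 and 2. Over all 12941 tested genes the counts were 4213 lower and 2838 higher, then 3243 and 695.

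Of 24 other lysosomal enzymes and cofactors found in the table, 6 of the 16 tested were lower and the others did not pass. Among genes for cathepsin inhibitors, 4 of 6 tested were lower. Cstb, for the cytosolic inhibitor cystatin B, averaged 105 ± 24 FPKM in controls and 24 ± 15.2 with triclocarban (means ± SD of 4; log2 difference -2.32, limma adjusted p = 0.00206). Cst7, for cystatin F, averaged 37.6 ± 34.3 and 1.72 ± 0.405 FPKM (-3.20, limma adjusted p = 0.00235), with controls at 7.26, 8.94, 71.9 and 62.3 FPKM. The genes that sort enzymes to the lysosome were lower in 7 of 18 and higher in 1, and lower in 4 and higher in none without control 3, control 4 or triclocarban library 4. Igf2r, for the large mannose 6-phosphate receptor, had a log2 change of -1.37 (limma adjusted p = 0.0139) and Gnptab, for the enzyme that makes the mannose 6-phosphate tag, of -1.01 (limma adjusted p = 0.0149). The higher gene was the adaptor subunit gene Ap3m1 (1.26, limma adjusted p = 0.0469).

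Further proton pump subunits and assembly factors were lower in 2 of 16 tested genes and higher in 1. The lower ones were Tcirg1, for the V0 a3 subunit, at -1.65 (limma adjusted p = 0.00141), and Atp6v0e at -1.09 (limma adjusted p = 0.0315), and the higher one was the assembly factor gene Tmem199 at 1.44 (limma adjusted p = 0.00151). Of 22 other membrane proteins and transporters tested, 6 were lower, such as Pqlc2, a lysosomal exporter of cationic amino acids (-2.60, limma adjusted p = 9.33e-05), and Mfsd8 (-1.69, limma adjusted p = 0.000635). The 2 higher were the cystine exporter gene Ctns (0.95, limma adjusted p = 0.0136) and the arginine sensor gene Slc38a9 (1.15, limma adjusted p = 0.0213). Genes for nutrient sensing and TFEB control were lower in 5 of 21 and higher in 3. Mtor, the kinase that keeps TFEB in the cytosol, was at -1.31 (limma adjusted p = 0.003) and the GTPase gene Rragd at -1.43 (limma adjusted p = 0.002). Rraga was at 1.42 (limma adjusted p = 0.000692) and Tfec, a relative of Tfeb, at 1.19 (limma adjusted p = 0.00677). Genes for lysosome transport and fusion were lower in 4 of 19 and higher in 3. The small GTPase gene Arl8b changed by -1.44 (limma adjusted p = 0.000974) and Borcs6, for a subunit of the complex that recruits it, by -1.43 (limma adjusted p = 0.000325). The SNARE genes Stx8 and Vti1b changed by 1.3 and 1.17 (limma adjusted p of 0.0162 and 0.0168). These shares stand beside the 30.8% lower and 11.3% higher among all tested genes, and they moved with the scaling. With median-of-ratios scaling the sorting genes were 2 lower and 2 higher, and with quantile normalization 3 were higher and none lower. By the same scalings the other enzymes were 6 lower and 1 higher, then 5 and 3, and the cathepsin inhibitors 3 and 1, then 2 and 1. The further pump genes were 1 and 3, then 2 and 4, and the other membrane proteins 5 and 4, then 5 and 3. The nutrient-sensing genes were 4 and 5, then 3 and 4, and the transport and fusion genes 3 and 4, then 2 and 4. Over all 12941 tested genes these scalings gave 3187 lower and 2638 higher, then 2947 and 2803, where the main fit gave 3981 and 1466.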

How the data were processed

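RNA labelled polyadenylated was sequenced from 8 libraries as paired reads of 150 bases, and both a total-RNA kit and cDNA preamplified for 16 to 18 cycles are described, per the labels' protocols; amplification can add noise to low values. The authors deposited FPKM values of all libraries in 1 table. The submitters' processing notes name mm10, featureCounts, StringTie, STAR and DESeq2 1.30.1, with no roles. The tool behind the FPKM, its annotation and its strand setting were each not given in the sources used here. Counts could not be recovered (5.3 to 6.6% of low values lay within 0.02 of a whole fragment, where chance gives 4%), so no count model was used.

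Symbols and coordinates came from GENCODE M21 (GRCm38, the assembly of mm10), which matched 87.4% of identifiers. The 12941 genes that reached 1 FPKM in 4 or more libraries were fitted with limma 3.58.1 in R 4.3.3 (lmFit, eBayes with trend, 6 residual degrees of freedom) on log2(FPKM + 1), which understates changes of low genes, with Benjamini-Hochberg adjustment over all of them. The fit was tested on simulated data. The lysosome genes, their 9 role groups, 7 related lists and 4 marker lists were chosen with earlier results of these data known. By the naming rule, values in every library are given for each role's 4 smallest adjusted p-values, its 2 highest levels, all higher genes, Tfeb, Tfe3, Ctsb, Ctsc and Cd63, and in related lists up to 2 genes a direction; those of the other enzymes are not reported here. Lists were only counted, without set tests. In these lists, 3 symbols had no match. Same-numbered libraries of the 2 groups were not treated as pairs. Promoters are from RefSeq. Python 3.11.15 and pandas 2.3.3 made the tables.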

Additional observations from a re-analysis of the deposited data

Results flagged for a closer look

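Among 87 groups of 4 values examined (the genes given in every library, and sums by role, in each treatment), 9 had 1 library whose distance to its nearest neighbour exceeded, as a share of the group's range, Dixon's 95% critical value for 4 values; chance gives about 1 in 20. Control 3 was the high library for Ctsz (36.92 FPKM), Smpd1 (15.1 FPKM), Npc2 (49.41 FPKM) and the summed accessory pump subunits (117 FPKM). Control 2 was high for Ids (3.23 FPKM) and low for Psap (3.2 FPKM). Triclocarban library 2, the one with the lowest estimated depth, was high for Ids (4.93 FPKM) and Atp6v0d1 (64.54 FPKM). Triclocarban library 1 was high for Atp6v1g1 (278.82 FPKM), where the others were at 237.24 to 242.15.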

How the results depend on the processing

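Of the 23 lysosome genes called, 17 kept their call under all of the 20 alternatives in which they were tested, among them 15 of the 20 lower ones; the exceptions were Gaa, Glb1, Man2b1, Scarb2, Atp6v1d and Atp6v1f. Of the 25 not called, 13 passed in some alternative: Tpp1, Arsb, Smpd1, Ppt1, Grn, Lamp1, Mcoln1, Atp6v0b, Atp6v1b2, Atp6v1c1, Atp6v1e1, Atp6v1h and Atp6ap1. The number of lower lysosome genes was 13 with a minimum of 5 FPKM, which tested fewer of them (35). The number of higher ones was 9 with median-of-ratios scaling, 7 with quantile normalization, 6 with library weights (whose fit stopped short of its tolerance), 11 without controls 1 and 2, and 2 to 6 without single libraries. Scaling moved the median change of all genes from -0.19 to 0.06 (median-of-ratios) and 0.13 (quantile). With these scalings 17 and 16 lysosome genes were lower, and the share of higher genes among those called went from 13.0% to 34.6 and 30.4%. Over all genes, 3981 were lower and 1466 higher; 2492 were lower with a minimum of 5 FPKM, and 2638 were higher with median-of-ratios scaling, 2803 with quantile normalization, 2838 without controls 1 and 2, 695 without controls 3 and 4, and 953 to 1860 without single libraries. The median change of the lysosome genes turned from -0.01 to 0.0013 with a pseudocount of 5, 0.09 with a minimum of 5 FPKM, 0.2 with median-of-ratios scaling, 0.33 with quantile normalization and 0.05 scaled to TPM or without controls 1 and 2. It was -0.41 without controls 3 and 4 and -0.26 to 0.05 without single libraries. The share of the FPKM sum was 0.379% and 0.245% in controls and treated libraries when mitochondrially encoded genes were left out of the sum. Low genes moved with the pseudocount by construction: with 0.1 and 5, Galns was at -2.32 and -0.64 and Psap at -2.17 and -0.68. Otherwise the cause was not tested.

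Some genes that did not pass changed sign. Without controls 3 and 4 the log2 changes were Ctsd -0.51, Ctsh -0.25, Hexa -0.05, Galc -0.02, Fuca1 -0.30, Lamp1 -0.39, Mcoln1 -0.36, Tfe3 -0.06, Atp6v0b -0.18, Atp6v0d1 -0.06, Atp6v1a -0.00143 and Atp6v1b2 -0.33. With library weights Ctsd was at -0.04 and Atp6v0d1 and Atp6v1a at -0.03. Ids was at 0.11 with median-of-ratios scaling and 0.28 with quantile normalization. Without single libraries the ranges were Ctsd -0.25 to 0.30, Ctsh -0.31 to 0.65, Fuca1 -0.05 to 0.35, Ids -0.39 to 0.04 and Atp6v0d1 -0.03 to 0.40.

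Same-numbered libraries had positive correlations of their deviations (0.34, 0.05, 0.09 and 0.1 for numbers 1 to 4), and 6 of 8 libraries were closest to their own number. The main fit did not treat the numbers as pairs, and whether they mark shared batches was not tested. With the replicate number as a block, 20 lysosome genes were lower and 2 higher, 22 of the 23 calls being shared (Atp6v1f was lost), and over all genes 4061 were lower and 1544 higher. The depth is only estimated, so low values such as those of Tfeb and Sgsh carry no counting interval.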
